A study of Mus musculus with 3 samples.

Results

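Genes whose symbols end in -ps, or in -ps and digits, are named pseudogenes. They were collected from RIA-seq, an assay that pulls one chosen RNA out of fixed cells together with the RNAs bound near it. Of 26587 gene names in the data, 358 carried such a symbol, and 212 of these had at least 10 counts summed over the 3 libraries and made up the set described here. Another 145 symbols stayed under that minimum and held 416 counts together, and Actg-ps1, an actin pseudogene, was left out by name. Mouse E14 ES cells of strain 129/Ola, an embryonic stem cell line cultured without feeder cells, were fixed with 1% glutaraldehyde for 10 min. Antisense oligonucleotides against one RNA were left in the sonicated lysate overnight at 37 °C, and what they bound was taken up on streptavidin beads. The control library (Actb RIA-seq) was made with oligonucleotides against the mRNA of β-actin. The Malat1 library (Malat1 RIA-seq) targeted a nuclear long noncoding RNA, and the Tfrc library (Tfrc RIA-seq) the mRNA of the transferrin receptor, and both were compared with that same control. Each condition was 1 library, so no spread between replicates could be measured, and every interval below is a 95% interval that covers counting error only.

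A processed pseudogene arises when an mRNA is copied into DNA and inserted elsewhere in the genome, which leaves a copy without introns. An unprocessed pseudogene comes from duplication of a gene and keeps its introns, and a unitary pseudogene is a gene that lost its function without leaving a working copy. Genes of ribosomal proteins, whose mRNAs are abundant in every dividing cell, are the parents of many processed pseudogenes. Because such a copy resembles the mRNA of its parent, a short read from one can also match the other. In the text below, the parent is the gene whose symbol stands before -ps.

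The set was broader than processed pseudogenes. GENCODE annotates 211 of the 212 members on the mouse genome build NCBIM37. It typed 121 as processed pseudogenes, 60 as protein coding, 16 as unprocessed or unitary pseudogenes, 9 as pseudogenes of no given kind and 5 as noncoding RNA. A single exon was annotated for 176. The parent was listed in the data for 170 members, which came from 85 parents, and 162 of the 170 lay on another chromosome than their parent. The other 42 members had a parent symbol that no row carried, often an older or a family symbol such as Eif3s6 or Vmn1r. Copies of ribosomal protein genes made up 117 members and 76.1% of the members' counts. None of the members had Actb, Malat1 or Tfrc as its parent.

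The 25 members with the most counts had a median identity of 99.4% with their parents over the aligned sequence (92.4 to 100%). Stretches of 60 nt are printed here because they show how far a read could tell copy and parent apart. Each stretch is the part of the aligned coding sequence with the most differences, and capitals mark the bases at which copy and parent differ. Sequences were read from the NCBIM37 genome for the copy and from the coding sequence of the annotated parent transcript. Tpt1 encodes translationally controlled tumour protein. The copy Tpt1-ps3 (ENSMUSG00000084319, which the annotation lists as Gm14456), at chr6:99828269-99828328 on the minus strand, did not differ from bases 1 to 60 of that coding sequence, nor anywhere in its 516 nt.
Tpt1-ps3: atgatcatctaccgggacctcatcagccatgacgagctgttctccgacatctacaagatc
Tpt1: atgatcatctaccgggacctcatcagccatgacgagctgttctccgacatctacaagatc
Rpl34 encodes a protein of the large ribosomal subunit. Rpl34-ps1 (ENSMUSG00000068396), at chr6:71074676-71074735 on the plus strand, had 2 differences over 351 nt, of which 1 fell in the stretch.
Rpl34-ps1: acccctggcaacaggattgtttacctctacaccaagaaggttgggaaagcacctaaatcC
Rpl34: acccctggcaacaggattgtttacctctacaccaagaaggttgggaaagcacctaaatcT
Rps2 encodes a protein of the small subunit. Rps2-ps13 (ENSMUSG00000081684), at chrX:50251789-50251848 on the plus strand, had 7 differences over 882 nt, of which 2 fell in the stretch.
Rps2-ps13: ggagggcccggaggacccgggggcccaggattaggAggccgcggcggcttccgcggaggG
Rps2: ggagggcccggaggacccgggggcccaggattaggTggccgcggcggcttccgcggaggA
Mdm4 encodes an inhibitor of p53 related to Mdm2. Mdm4-ps (ENSMUSG00000081739), at chrX:124796726-124796785 on the plus strand, had 64 differences over 1432 nt, of which 8 fell in the stretch.
Mdm4-ps: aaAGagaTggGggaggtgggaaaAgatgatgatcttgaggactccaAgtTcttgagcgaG
Mdm4: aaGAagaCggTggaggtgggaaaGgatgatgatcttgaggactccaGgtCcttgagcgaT
Rpsa encodes the small-subunit protein also known as the laminin receptor. Rpsa-ps5 (ENSMUSG00000081695), at chr11:28857137-28857196 on the plus strand, had 61 differences over 880 nt, of which 9 fell in the stretch.
Rpsa-ps5: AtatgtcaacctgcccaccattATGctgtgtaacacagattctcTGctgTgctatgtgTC
Rpsa: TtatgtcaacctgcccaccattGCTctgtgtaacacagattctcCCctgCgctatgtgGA
A 30-nt read placed in the last of these stretches would meet at least 1 difference wherever it started, and one placed in that of Tpt1-ps3 would meet none.

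Over the whole set, the identity between member and parent had a median of 98.4% in the 167 members with an alignment (81.2 to 100%). It was at least 99% in 56 members and 100% in 11. Of 141 members with a single exon compared with the coding sequence of the parent, 94 aligned over its whole length and 12 showed no difference, including 7 of the 25 members with the most counts. A reading frame of at least 90% of the parent's coding length was present in 108 of 170. To measure how much of a member could be told from all other sequence, each was divided into overlapping windows of 30 nt, and a window was called unique when it occurred once in the genome and in no transcript of another gene. The median share of unique windows was 22.9%, and 25 members had none. How reads with several matches were counted was not given in the sources used here, so a count of a member with few unique windows may hold reads of its parent, and the part of this in the results was not tested.

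The libraries differed in depth and makeup. Total counts were 10405209 in the control library, 10078439 in the Malat1 library and 14553941 in the Tfrc library, so the smallest share that 3 counts could show lay between 0.206 and 0.298 per 1000000 counts. A gene could have a count under its Ensembl identifier and a further one under the reference name Genome, and Genome counts made up 5.25%, 19.0% and 15.1% of the libraries in that order. Lars2 alone, a mitochondrial tRNA synthetase gene, held 32.0%, 17.0% and 22.2%. On library totals the median fold over the control library, taken over genes that reached 10 counts in each library of the pair, was 1.82 for the Malat1 library and 1.56 for the Tfrc library, or 0.86 and 0.64 on the log2 scale, so a fold between 1 and these medians falls below 1 once libraries are scaled to the median gene. The ES cell label was checked with 10 markers, all with counts in every library, which summed to between 3241 and 4527 per 1000000 counts. The 5 fibroblast markers, 5 primitive endoderm markers and 5 markers of mesoderm and neural cells each summed to at most 24.4 per 1000000 counts, and Sox1, a neural marker, was at 0 in all 3 libraries. In such bulk material, fewer cells of a type and less RNA per cell cannot be told apart.

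Named pseudogenes held a small and similar share of each library. Their counts summed to 45671 in the control library, 52460 in the Malat1 library and 63370 in the Tfrc library. These were 4389 per 1000000 counts (95% Wilson interval 4349 to 4430), 5205 (5161 to 5250) and 4354 (4320 to 4388). The fold over the control was 1.19 in the Malat1 library (1.17 to 1.20), which turned to 0.652 with scaling to the median gene, and 0.992 in the Tfrc library (0.980 to 1.00), or 0.637 with that scaling. Counts in all 3 libraries were present for 207 members. The other 5, named here after their values were seen, were Vmn1r-ps32, Apc-ps1, Hspe1-ps5, Rpl29-ps1 and Vmn1r-ps151, which had 0 counts in the control library and 2 to 10 in the Malat1 library. These 5 reached the minimum of 10 summed counts only through the target libraries, so their higher level there follows from the rule. With 3 counts in place of the 0 in the control library, the ratio for Vmn1r-ps32 would be 3.44 in the Malat1 library (10 counts). In the Tfrc library (14 counts) it would be 3.34, and both values leave out counting error.

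Membership rested on the summed count, so levels are given as a description. The 25 members with the most counts held 60.5% of all members' counts, and 22 of them were copies of ribosomal protein genes. Just inside the minimum stood Mup-ps20 (1, 3 and 6 counts in the control, Malat1 and Tfrc libraries), Rpl22-ps1 (3, 4 and 3) and Vmn1r-ps151 (0, 2 and 8). Just outside it, with 9 counts each, were 6 symbols, among them Mageb10-ps (2, 5 and 2), Ncr3-ps (0, 5 and 4) and Rpl17-ps1 (4, 2 and 3).

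Tpt1-ps3 had the most counts, 2689 in the control library, 3138 in the Malat1 library and 3736 in the Tfrc library. Per kb of exon this was 376, 453 and 374 per 1000000 counts, and over the 3 libraries the level per kb was 77.5% of that of Tpt1. Rpl34-ps1, with 1409, 2187 and 1875 counts, reached 329, 527 and 313 per kb per 1000000 counts, the highest value of any member with a listed parent in the Malat1 library. Its parent Rpl34 had 530, 456 and 720 counts, and the level per kb of the copy was 918% of the parent's. The copy thus stood above the gene it was copied from in every library, although Rpl34-ps1 had no unique window and 33.9% of its counts were Genome counts. In the Malat1 library the fold over the control was 1.602 (1.499 to 1.71; below 1 with scaling to the median gene) for Rpl34-ps1 and 0.888 (0.784 to 1.01) for Rpl34, a ratio of 1.80 (1.57 to 2.08), and in the Tfrc library the folds were 0.951 and 0.971. With counts under the Ensembl identifier only, the fold of Rpl34-ps1 in the Malat1 library was 1.32, below that interval. Rpl10a-ps1 (2213, 1963 and 3174 counts), a copy of a large-subunit protein gene, was identical to its parent over 651 nt and stood at 157% of its level per kb. By counts it lay below Rpl10a (4599, 4299 and 6591), whose merged exons came to 2349 nt. Rpl3-ps1 (2260, 2110 and 2178 counts), a further large-subunit copy, had a level per kb of 91.5% of that of Rpl3. Nutf2-ps1 (1123, 2686 and 2400 counts) is a copy of the gene for nuclear transport factor 2, which carries Ran into the nucleus. Its level per kb was 182% of that of Nutf2, although Nutf2 had more counts (1393, 3211 and 3128) over merged exons of 1966 nt.

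**Figure D1:**
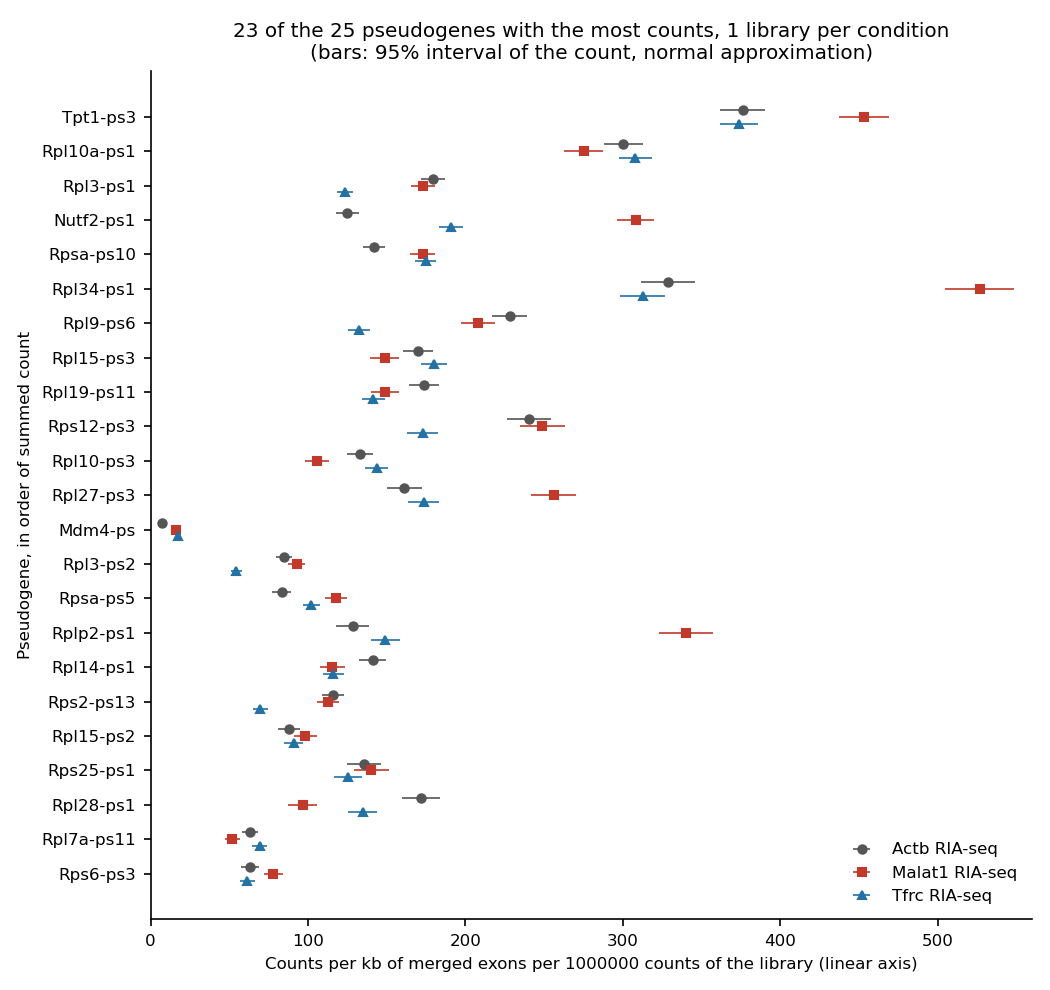
Level of 23 of the 25 named pseudogenes with the most counts, as counts per kb of merged exons per 1000000 counts (horizontal axis), in Actb RIA-seq (circles), Malat1 RIA-seq (squares) and Tfrc RIA-seq (triangles), 1 library each, with bars for the 95% counting interval. Rpl34-ps1 at 527 and Tpt1-ps3 at 453 in Malat1 RIA-seq lie farthest right, while Mdm4-ps, the longest of them, lies between 6.95 and 17.7.

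Across the 170 members with a listed parent, the level per kb had a median of 18.8% of that of the parent (0.131 to 918%), and 13 members stood above their parent. By counts, 3, 2 and 2 members stood above their parent in the control, Malat1 and Tfrc libraries. Merged exons join those of all transcripts of a gene, so a parent with a long merged length has a lower level per kb. The median was 47.0% in the 44 members with under 10% unique windows, 17.5% in the 99 members between 10 and 50%, and 2.11% in the 27 members with at least 50%. Spearman's rho between unique windows and relative level was −0.65 over these 170 members, which share libraries and, in part, parents. It is given as a description. Summed as counts, without correction for length, the members came to 22.6% of their parents in the control library (22.3 to 22.8), 21.6% in the Malat1 library (21.4 to 21.8) and 21.5% in the Tfrc library (21.3 to 21.7). The summed counts of the copies relative to those of their parents therefore moved little between libraries. Some single copies moved more. Relative to the fold of the parent, their folds ranged from 0.229 to 3.02 in the Malat1 library and from 0.422 to 2.47 in the Tfrc library.

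**Figure D2:**
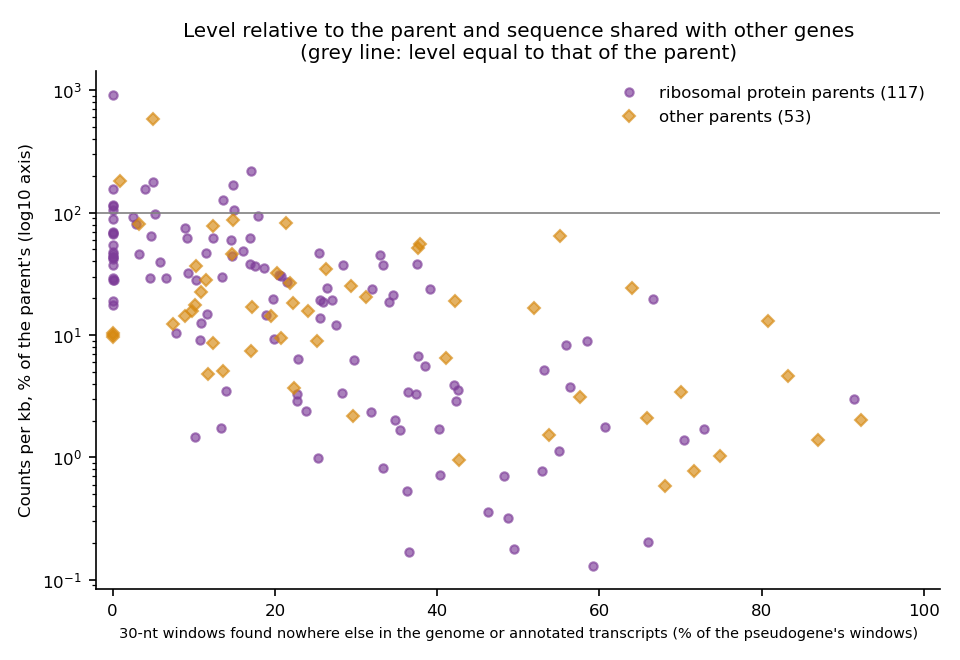
Level per kb as a percent of the level of the parent (vertical axis, log10) against the percent of 30-nt windows found nowhere else (horizontal axis) for 170 members, with copies of ribosomal protein genes as circles and other members as diamonds. The grey line marks 100%, and of the 13 members above it 9 had under 10% unique windows.

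The Malat1 library was compared with the control library to ask which pseudogene transcripts were recovered with Malat1. Folds could be listed for the 158 members with at least 10 counts in both libraries, while 54 members did not reach this minimum. The median fold was 1.08 (0.595 with scaling to the median gene), with quartiles of 0.834 and 1.63. At least 2-fold higher were 24 members, 15.2%, where 42.0% of 14549 genes were. At least 2-fold lower were 11, 6.96%, where 0.955% of all genes were. A fold above 1 was seen in 93 members (58.9%) and in 88.7% of all genes. Genes outside the set that are annotated with a single exon had a median of 1.20 over 1082 genes, with 23.8% at least 2-fold higher and 7.67% at least 2-fold lower, and genes with more exons had a median of 1.86 over 12985 genes.

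Among the 158 members listed, the highest folds in the Malat1 library belonged to members that the annotation does not type as processed copies. Slc2a4rg-ps (ENSMUSG00000085028, chr2:181118955-181122291 on the plus strand), named for a regulator of the glucose transporter gene Slc2a4 and annotated as an antisense noncoding RNA of 3 exons, had 22, 119 and 117 counts in the control, Malat1 and Tfrc libraries. The control was the lowest library, and the fold was 5.58 in the Malat1 library (3.54 to 8.80) and 3.80 in the Tfrc library (2.41 to 5.996). Ppp4r1l-ps (ENSMUSG00000055897, chr2:173404821-173485141 on the minus strand) is an unprocessed pseudogene of 22 exons, named for a gene that resembles a regulatory subunit of protein phosphatase 4. It had 107, 572 and 551 counts, a fold of 5.52 (4.49 to 6.79) and 3.68 (2.99 to 4.53). Of its counts, 38.9% were Genome counts, and 99.3% of its windows were unique. Pisd-ps2, an unprocessed copy of the gene for mitochondrial phosphatidylserine decarboxylase, had 37, 147 and 154 counts. Its fold in the Malat1 library was 4.10 (2.86 to 5.88) where that of Pisd was 1.38 (1.19 to 1.61). Between 10 and 50% of the windows of Pisd-ps2 were unique. In all 3 cases the control was below both target libraries, which lay within a factor of 1.5 of each other per library total.

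The lowest folds in the Malat1 library belonged to single-exon copies. Eif3s6-ps1, named with the older symbol for a subunit of translation initiation factor 3, had 103 counts in the control library, 21 in the Malat1 library and 110 in the Tfrc library. The fold was 0.211 (0.132 to 0.337) in the Malat1 library and 0.763 (0.584 to 0.999) in the Tfrc library. Rpl29-ps5 had 46, 12 and 69 counts and Rpl29-ps2 had 41, 11 and 32. Their folds in the Malat1 library were 0.269 (0.143 to 0.508) and 0.277 (0.142 to 0.539). For both, the Malat1 library was the lowest of the 3. Their parent Rpl29, which encodes a large-subunit protein, had 299, 230 and 477 counts and a fold of 0.794 (0.669 to 0.943). Genome counts made up 14.7%, 40.9% and 21.2% of the counts of Rpl29 in the control, Malat1 and Tfrc libraries. With counts under the Ensembl identifier only, the folds of both copies stayed at 0.269 and 0.277. The part of Genome counts in the difference between Rpl29 and its copies was not tested.

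The Tfrc library over the control library gave a narrower spread. The 165 members listed had a median fold of 1.02 (0.655 with scaling to the median gene), with quartiles of 0.824 and 1.21. Of these, 7 were at least 2-fold higher, 4.24%, where 28.5% of 14665 genes were, and 0 were at least 2-fold lower, where 0.389% of all genes were. A fold above 1 was seen in 87 members, 52.7%, and in 87.2% of all genes. Single-exon genes outside the set had a median of 1.04 over 1123 genes, and genes with more exons 1.6 over 13050. Of those single-exon genes, 14.1% were at least 2-fold higher and 2.14% at least 2-fold lower. Beside Slc2a4rg-ps and Ppp4r1l-ps, the highest fold was that of Tes3-ps, a single-exon member annotated as protein coding within an intron of Cenpp on the opposite strand. It had 10, 28 and 46 counts and a fold of 3.29 with a wide interval (1.66 to 6.52). The lowest were Hnrnpa1l2-ps (53, 32 and 39 counts, fold 0.526), named for a relative of the splicing regulator hnRNP A1, Rps2-ps6 (553, 493 and 430 counts, fold 0.556), and Rps19-ps4 (36, 10 and 28 counts, fold 0.556), a copy of a small-subunit gene within an intron of Lars on the opposite strand. Whether counting used strand was not given in the sources used here, so reads of Tes3-ps and Cenpp, or of Rps19-ps4 and Lars, cannot be told apart by strand.

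Set out by annotated type, processed copies stood near the control on library totals, and unprocessed pseudogenes and noncoding RNAs above it, as the median gene did (1.82 and 1.56). Type went with exon number: 119 of the 121 processed pseudogenes had 1 exon. Of the 16 unprocessed or unitary pseudogenes 14 had 2 or more, as did all 5 noncoding RNAs. Genes outside the set with 2 or more exons had medians of 1.86 and 1.6, and the part of exon number was not tested. The 121 processed pseudogenes had 28820, 30735 and 38840 counts in the control, Malat1 and Tfrc libraries, a summed fold of 1.10 (1.08 to 1.12; below 1 with scaling to the median gene) and 0.963 (0.949 to 0.978). The 60 members annotated as protein coding had folds of 1.33 (1.30 to 1.36) and 1.02 (0.999 to 1.04). The 9 pseudogenes of no given kind had folds of 0.974 (0.921 to 1.03) and 0.828 (0.785 to 0.874). In the 16 unprocessed or unitary pseudogenes the summed counts were 562, 1474 and 1779, with folds of 2.71 (2.46 to 2.98) and 2.26 (2.06 to 2.49). The 5 noncoding RNAs had 41, 186 and 221 counts and folds of 4.68 (3.34 to 6.57) and 3.85 (2.76 to 5.38), but Slc2a4rg-ps alone reached the minimum for the lists. Without it, the other 4 had 19, 67 and 104 counts and folds of 3.64 (2.19 to 6.06) and 3.91 (2.40 to 6.38). Without Ppp4r1l-ps, the other 15 unprocessed or unitary pseudogenes had folds of 2.05 (1.83 to 2.29) and 1.93 (1.73 to 2.15). Both omissions were chosen after the values were seen. The share of Genome counts also differed by type. It was 4.16% of the counts of processed pseudogenes, 26.9% of those of unprocessed or unitary pseudogenes and 26.1% of those of the noncoding RNAs, and its part in the folds was not tested.

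**Figure D3:**
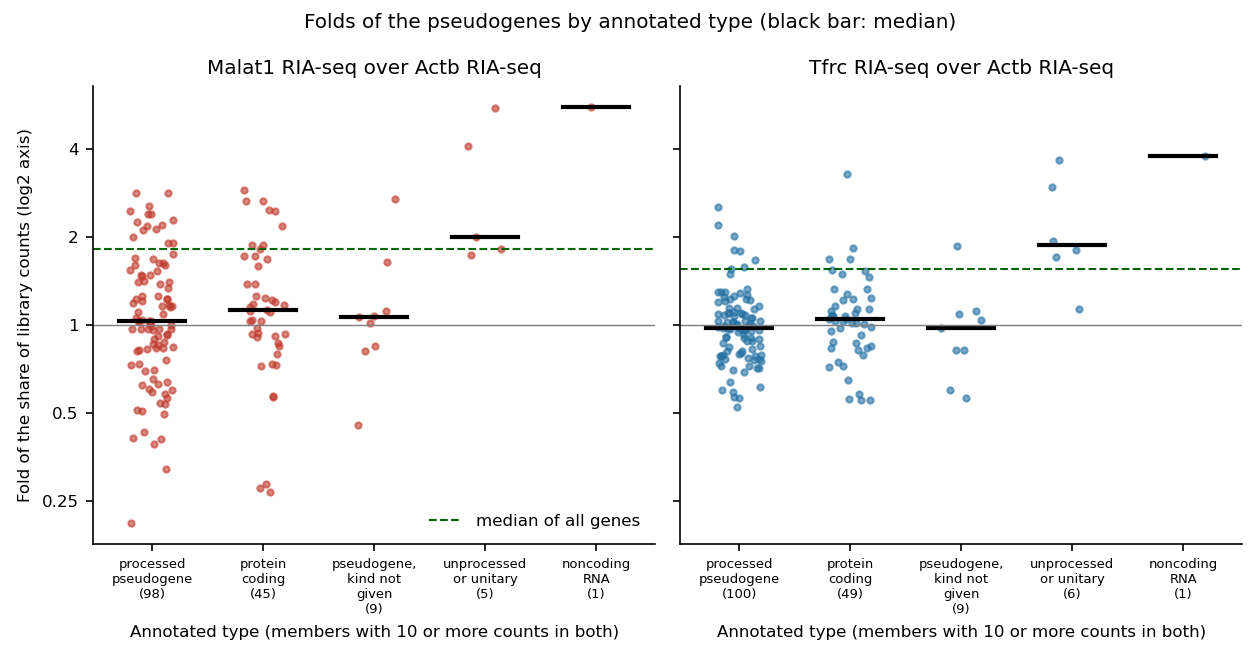
Folds over Actb RIA-seq (vertical axis, log2) of members with at least 10 counts in both libraries, by annotated type, in Malat1 RIA-seq (left) and Tfrc RIA-seq (right), with 1 point per member and a black bar at the median. Processed pseudogenes centre on 1.03 and 0.981, below the dashed line at the median of all genes, 1.82 and 1.56, and the few unprocessed or unitary pseudogenes centre on 2.01 and 1.88.

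Grouped by the role of the parent, the 117 copies of ribosomal protein genes had 36671, 38906 and 47328 counts and summed folds of 1.10 (1.08 to 1.11; below 1 with scaling to the median gene) and 0.923 (0.910 to 0.935). At least 2-fold higher in the Malat1 library were 9 of the 100 listed, and 7 were at least 2-fold lower, beside 42.0% and 0.955% of all genes. Among single-exon genes outside the set these shares were 23.8% and 7.67%. The 7 copies of translation and nascent chain factors, chiefly those of Tpt1, had folds of 1.18 and 0.981. The 9 copies of genes for chromatin and nuclear proteins, of which 6 were copies of Hmgb1, an abundant DNA-bending protein, had 411, 541 and 575 counts and folds of 1.36 and 1.00. The 3 copies of metabolic genes had 297, 143 and 350 counts, lowest in the Malat1 library, with folds of 0.497 (0.407 to 0.607) and 0.843 (0.722 to 0.983). Pgam1-ps2 held 628 of their 790 counts, and the folds of the 3 copies in the Malat1 library ranged from 0.391 to 0.537. Their parents Pgam1 and Got2 had folds of 1.71 and 0.940 there. The 7 members named for receptors and immune genes had 115, 283 and 357 counts and folds of 2.54 (2.05 to 3.16) and 2.22 (1.80 to 2.74), with 26.6% of counts under Genome. The medians of all genes were 1.82 and 1.56. Of the 755 counts of this group 1 member held 405, and 2 members reached the minimum for the lists. The 3 copies of chaperone genes had 85, 43 and 152 counts. Groups of 1 or 2 members were thin, namely a ferritin copy (2, 19 and 11 counts, under the minimum for the lists of folds, with a ratio of 9.81 in the Malat1 library and an interval from 2.29 to 42.1), a copy of a respiratory chain gene (14, 15 and 26 counts) and both cytochrome P450 members (21, 16 and 18 counts together). The 62 other members, led by Nutf2-ps1 and Mdm4-ps, had folds of 1.964 (1.89 to 2.04) and 1.56 (1.504 to 1.62).

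The fold of a copy was then set beside the fold of its parent in the same pair of libraries. The ratio of both folds had a median of 0.974 in the Malat1 library over 136 members, and 86 of these lay within a factor of 1.5 of their parent. The interval of the ratio included 1 for 63 members, lay above 1 for 39 and below 1 for 34. In the Tfrc library the median ratio was 0.975 over 141 members, 119 lay within a factor of 1.5, and the interval included 1 for 106, lay above it for 14 and below it for 21. The parents themselves had a median fold of 1.15 and 1.06 over 84 genes. Among the 25 members with the most counts, 22 lay within a factor of 1.5 of the parent in the Malat1 library and 24 in the Tfrc library. The interval of their ratio included 1 for 9 of the 25 in the Malat1 library, lay above it for 10 and below it for 6, and in the Tfrc library it included 1 for 17, lay above it for 2 and below it for 6.

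Nutf2-ps1 and its parent had like folds. The copy had a fold of 2.47 (2.30 to 2.65) in the Malat1 library and Nutf2 one of 2.38 (2.24 to 2.53), a ratio of 1.04 (0.945 to 1.14). In the Tfrc library the folds were 1.53 and 1.61. Nutf2-ps1 did not differ from Nutf2 over the 381 nt of coding sequence, and 0.957% of its windows were unique.

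Mdm4-ps, on the X chromosome, had 471, 1046 and 1676 counts against 849, 3244 and 3038 for Mdm4 on chromosome 1. In the Tfrc library the folds were alike, 2.54 (2.30 to 2.82) for the copy and 2.56 (2.37 to 2.76) for the parent. In the Malat1 library that of the copy was 2.29 (2.06 to 2.56) and that of Mdm4 3.94 (3.66 to 4.25), a ratio of 0.581 (0.509 to 0.664). Of the windows of Mdm4-ps, 63.98% were unique. Genome counts made up 42.3%, 52.6% and 61.1% of the counts of Mdm4 in the control, Malat1 and Tfrc libraries, and none of those of Mdm4-ps. Their part in the difference was not tested.

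**Figure D4:**
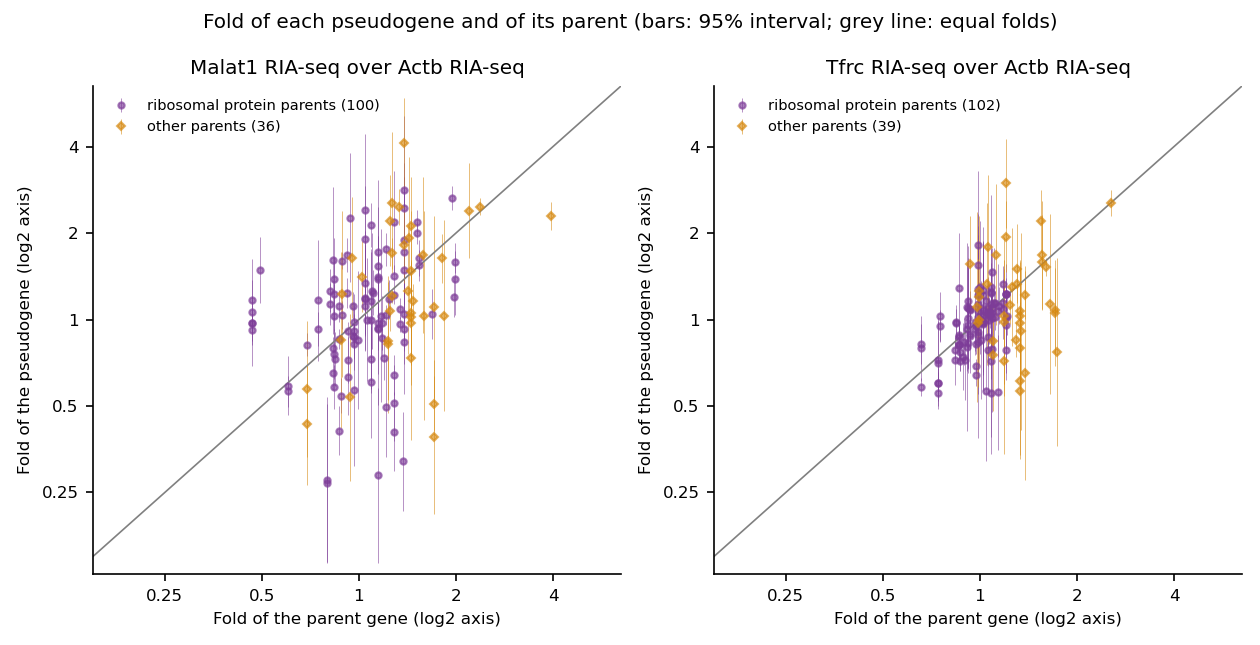
Fold over Actb RIA-seq of each member (vertical axis, log2) against that of its parent (horizontal axis, log2) in Malat1 RIA-seq (left, 136 members) and Tfrc RIA-seq (right, 141 members), with bars for the 95% interval of the member and a grey line at equal folds. Points scatter on both sides of the line, between ratios of 0.229 and 3.02 on the left and 0.422 and 2.47 on the right.

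Copies did not always share the fold of their parent. Rps2 was lower in the Malat1 library than in the control, with 2526, 1142 and 2625 counts and a fold of 0.467 (0.435 to 0.500). The 5 listed copies of Rps2 had folds between 0.920 and 1.17 there, and each ratio to the parent, 1.97 to 2.50, had an interval above 1. Rps2-ps13 (1064, 1002 and 895 counts) had a level per kb of 97.6% of that of Rps2. In the Tfrc library the same 5 copies had folds of 0.556 to 0.725 and Rps2 one of 0.743, with ratios of 0.748 to 0.976. The copies were thus close to the control in the Malat1 library, where their parent was lower, and below it in the Tfrc library.

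The copies of Rpsa were spread widely in the Malat1 library. Rpsa had 8563, 10624 and 14443 counts and a fold of 1.28 (1.25 to 1.32). Rpsa-ps10 (1524, 1796 and 2622 counts) had a fold of 1.22 (1.14 to 1.30) and Rpsa-ps5 (767, 1050 and 1317 counts) one of 1.41 (1.29 to 1.55), each near the parent and each below 1 with scaling to the median gene. Rpsa-ps5 was the copy with 66.6% unique windows whose stretch is printed above with 9 differences. The 6 listed copies ranged from 0.407 to 2.19 in the Malat1 library, with 3 intervals above 1 and 3 below it. In the Tfrc library their folds ranged from 0.785 to 1.23. Rpl21, a large-subunit gene, had the most copies, 11 in the set, and the 8 listed ranged from 0.837 to 2.82 in the Malat1 library.

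**Figure D5:**
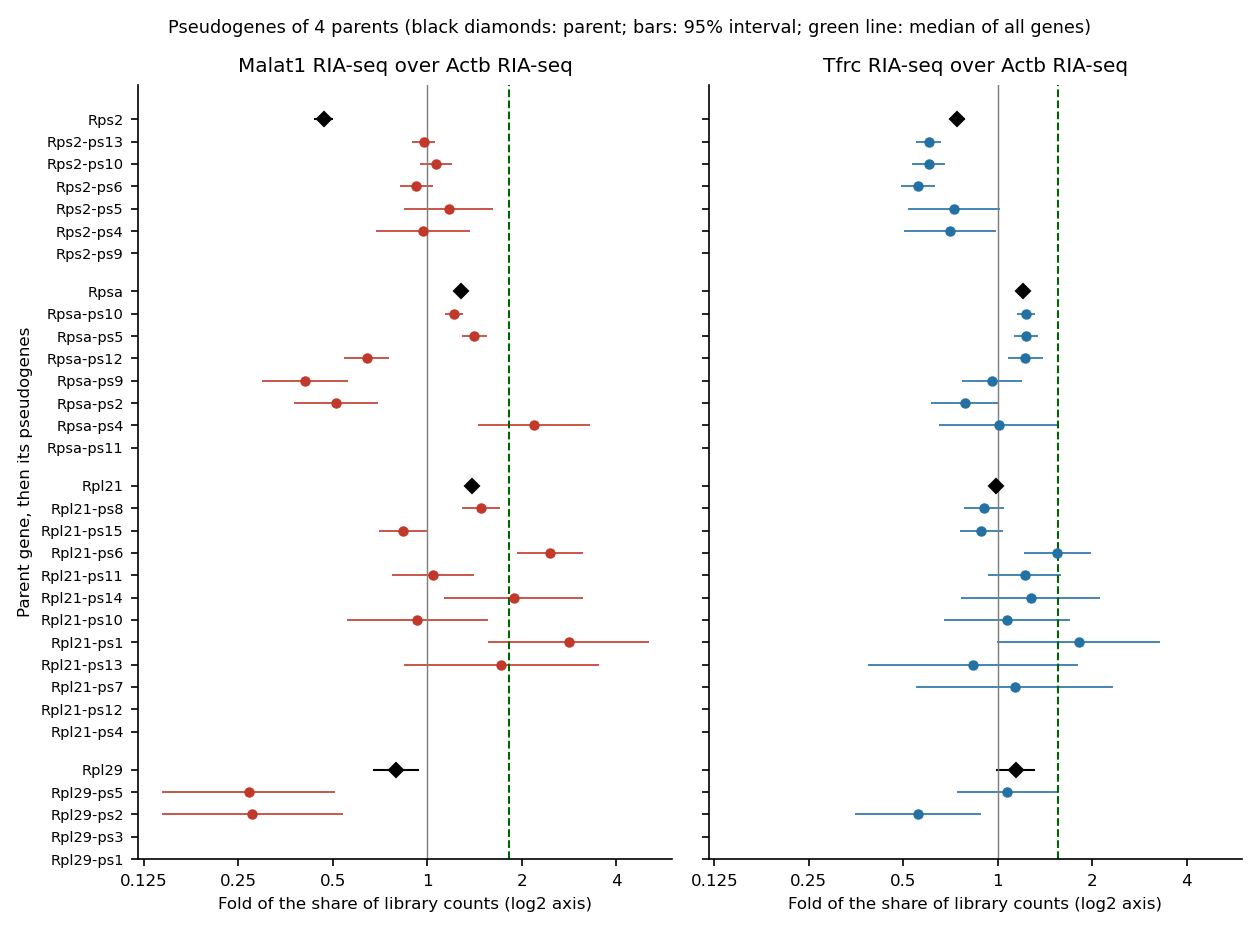
Folds over Actb RIA-seq (horizontal axis, log2) of the pseudogenes of Rps2, Rpsa, Rpl21 and Rpl29 (circles) and of the parents (black diamonds), with 95% intervals, in Malat1 RIA-seq (left) and Tfrc RIA-seq (right). Members with under 10 counts in either library have no point. The copies of Rps2 lie to the right of their parent at 0.467 on the left panel. Those of Rpl29 lie to the left of theirs at 0.794 on that panel. Genome counts made up 40.9% of the counts of Rpl29 in Malat1 RIA-seq and 14.7% in Actb RIA-seq.

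Several other members of the 25 lay away from the control, some together with their parents and some not. Rplp2-ps1 is a copy of a gene for an acidic stalk protein of the large subunit, with 590, 1515 and 960 counts. Its fold was 2.65 (2.41 to 2.92) in the Malat1 library and that of Rplp2 1.95. Of the counts of Rplp2-ps1, 60.8% were Genome counts. Rpl28-ps1 (740, 403 and 812 counts) had a fold of 0.562 (0.498 to 0.635), and Rpl28 one of 0.601. Rpl27-ps3 (797, 1226 and 1199 counts) had 1.59 (1.45 to 1.74; below 1 with scaling to the median gene), and Rpl27 1.98. The copies of Rpl3 were low in the Tfrc library, 0.689 (0.650 to 0.731) for Rpl3-ps1 and 0.641 (0.588 to 0.699) for Rpl3-ps2 (1074, 1135 and 963 counts). The interval of Rpl3 included 1 there (0.971, from 0.919 to 1.03). Of the counts of Rpl3, 11.8% were Genome counts in the control library and 24.3% in the Tfrc library, and their part in this contrast was not tested. Rpl9-ps6 (1597, 1410 and 1298 counts) had 0.581 and Rpl9 0.658 in the Tfrc library. These are all genes of ribosomal proteins. On library totals some copies had folds on the other side of 1 from their parents, but with an interval that included 1. In the Malat1 library Rpl3-ps1 had a fold of 0.964 (0.908 to 1.02) and Rpl3 one of 1.34 (1.27 to 1.42). Genome counts made up 34.0% of the counts of Rpl3 there and 11.8% in the control library. Their part in the difference was not tested. In the Tfrc library Rpl27-ps3 had 1.08, with an interval that included 1, and Rpl27 0.935 (0.909 to 0.961). With scaling to the median gene all these folds lay below 1.

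Other members of the 25 lay closer to the control on library totals. Rpl15-ps3 (1207, 1024 and 1791 counts), Rpl15-ps2 (629, 680 and 909), Rpl19-ps11 (1299, 1076 and 1479), Rpl10-ps3 (1008, 775 and 1523), Rpl14-ps1 (1016, 805 and 1168) and Rpl7a-ps11 (560, 446 and 859) are copies of large-subunit genes, with folds of 0.794 to 1.12 in the Malat1 library and 0.814 to 1.10 in the Tfrc library. Rps12-ps3 (1173, 1176 and 1180), Rps25-ps1 (621, 622 and 803) and Rps6-ps3 (494, 590 and 670) are copies of small-subunit genes, with folds of 1.03 to 1.23 and 0.719 to 0.970. The highest of these in the Malat1 library, Rps6-ps3, had a fold of 1.23 (1.09 to 1.39) where Rps6 had 0.920 (0.881 to 0.960). With scaling to the median gene all these folds lay below 1.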

How the data were processed

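The 3 RIA-seq libraries came from mouse E14 ES cells, 1 per condition, and were told apart by the antisense oligonucleotides that the labels name. The authors deposited raw read counts per gene, whole numbers without normalization. The submitters' processing notes name Bowtie 0.12.7 and the builds mm9 and NCBIM37; the counting rule, use of strand and handling of reads with several matches are not given in the sources used here. Depth was 10405209 to 14553941 counts, at which 3 counts are 0.206 to 0.298 per 1000000.

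Both counts of a gene name were summed and divided by the library total. A fold is one such share over that of the control (pseudocount 0), with a 95% interval on the log scale from both counts, and a share has a Wilson interval. Reads carried no molecular identifiers, so intervals cover counting error only. No test was made, since each condition has 1 library. Lists of folds needed at least 10 counts in both libraries. Positions, exons and types came from GENCODE vM1 (Ensembl 65) for NCBIM37, and levels per kb used merged exons. Identity was taken from blastn of exons, and unique windows from exact 30-nt matches on either strand. Genes named were the 25 members with the most counts, the 3 highest and lowest folds of each comparison, the edges of the minimum, and parents of these, except 1 parent and its copies, which are not reported here but are counted in the summaries; the list of groups by parent symbol and the marker lists were set with it. The members and lists were chosen with earlier results of these data known. Alternatives were a total without the 10 genes with the most counts, scaling to the median gene (median ratio), a pseudocount of 1, Ensembl-ID counts only, the other target library as control, minimums of 1 and 50 counts, members typed as pseudogenes only, counts per kb and, added after seeing the data, 2 annotated types without their highest member. The fold interval was tested on simulated Poisson counts. Tables were made with pandas 2.3.3 and numpy 2.4.6 in Python 3.11.15, alignments with BLAST 2.17.0 and biopython 1.88, and figures with matplotlib 3.10.9.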

Additional observations from a re-analysis of the deposited data

How the results depend on the processing

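No paired analysis was possible because each condition has 1 library, and for the same reason no library could be left out. The limits are those of 1 library per condition, of a depth at which 54 and 47 members had too few counts for a fold, and of reads shared between copies. With scaling by the median ratio, the summed fold was 0.652 in the Malat1 library and 0.637 in the Tfrc library, the median fold 0.595 and 0.655, the number at least 2-fold higher 3 and 3, and at least 2-fold lower 49 and 29 (all genes 7.38% and 6.87% higher, 8.20% and 3.83% lower). Without the 10 genes with the most counts, members held 0.914%, 0.678% and 0.646% of the control, Malat1 and Tfrc libraries, the summed folds were 0.741 and 0.707, the medians 0.677 and 0.727, higher 3 and 4, lower 35 and 15 (all genes 11.6% and 10.1% higher, 5.44% and 2.27% lower). Both scalings lower the folds by construction, the first because the median fold of all genes is above 1 and the second because the 10 genes take more of the control than of the target libraries. With Ensembl-ID counts only, the shares were 0.422%, 0.481% and 0.415%, the summed fold in the Malat1 library 1.14, the medians 1.05 and 1.01, and the count relative to the parents 22.1% in the control library and 21.0% in the Malat1 library. Per kb it was 56.1%, 57.3% and 53.9%. With the other target library as the control, the medians were 1.15 and 0.869, the summed fold in the Tfrc library 0.837, higher in the Malat1 library 10 and lower in the Tfrc library 10 (all genes 4.29% in each case). In that setting 9 of 35 named folds in the Malat1 library and 15 of 35 in the Tfrc library crossed 1. Those that had been at least 2-fold from the control were Mdm4-ps (0.901) and Tes3-ps (0.879) in the Malat1 library, and Pisd-ps2 (0.726), Ppp4r1l-ps (0.667) and Slc2a4rg-ps (0.681) in the Tfrc library. With a minimum of 1 count the medians were 1.16 and 1.03, higher 44 and 22, lower 17 and 8 (all genes 46.5% and 36.3% higher, 2.74% and 2.75% lower), and with a minimum of 50 counts the medians were 1.07 and 0.992, higher 11 and 3, lower 2 in the Malat1 library (all genes 37.6% and 20.8% higher, 0.608% lower). Over members typed as pseudogenes the medians were 1.03 and 0.976, and higher 14 and 2. A pseudocount of 1 gave a median of 1.01 in the Tfrc library. Beyond the scalings, the cause of these shifts was not tested.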
